A study of Mus musculus with 28 samples.

Results

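The genes described here are 10 genes of MHC class I antigen presentation in sorted gut CD4+ T cells: B2m, H2-K1, H2-D1, Tap1, Tap2, Tapbp, Psmb8, Psmb9, Psmb10 and Nlrc5. They were chosen by symbol, and all 10 were found among the 25124 genes of the table. All 10 passed the filter on low values, so every member was tested. RNA was sequenced from T-bet-ZsGreen mice, which carry a fluorescent reporter of the transcription factor T-bet; the cells were sorted from the lamina propria of the small intestine as live CD45+ CD90.2+ TCRb+ CD4+ cells. Mice were SPF (specific-pathogen-free, with a gut flora) or GF (germ-free, without one), and were given aCD3 (antibody to CD3, the signalling part of the T cell receptor) or its isotype control. SPF mice gave 6 isotype libraries and 6 aCD3 libraries, both with F1 to F3 and M1 to M3. GF mice gave 10 isotype libraries, F1 to F5 and M1 to M5, and 6 aCD3 libraries, of which F1 is the only female and M1 to M5 are male. The reporter is present in all 4 groups, controls included. Among the libraries labelled GF aCD3, F1, M3 and M4 had Lag3, an inhibitory receptor of activated T cells, at 9.594, 17.03 and 12.33 TPM, within the 5.413 to 18.46 TPM of GF isotype, whereas M1, M2 and M5 had 452.0 to 527.0 TPM and SPF aCD3 libraries 505.0 to 824.9 TPM. Whether F1, M3 and M4 received or responded to the antibody cannot be told from the labels, and every value of the GF aCD3 group carries this doubt. Names such as F1 and M3 give the sex and a running number, and the labels do not say whether a library is 1 animal, so p-values measure the spread between these libraries. The ages of the mice, the dose and the sampling time were not used here.

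MHC class I molecules show peptides from a cell's own proteins to CD8+ T cells, and nearly every nucleated cell makes them. Proteasomes cut proteins into peptides, and interferon-inducible subunits (Psmb8, Psmb9 and Psmb10) can replace the constitutive ones (Psmb5, Psmb6 and Psmb7) to form the immunoproteasome. The peptides enter the endoplasmic reticulum through the TAP transporter and are loaded, with tapasin as the bridge, onto a heavy chain paired with beta-2-microglobulin. In lymphocytes, constitutive transcription of these genes depends strongly on NLRC5, a coactivator that binds no DNA itself and is recruited to a compact promoter module called SXY. The same module serves class II genes, where CIITA is the coactivator.

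The promoter sequences are shown first, since the class I module is the best known element these genes share. Of the 10 members, 8 had a matching start in the RefSeq promoter table of build GRCm38.p6. Tap2 and Nlrc5 were not among them. In the 250 bases before the start, B2m, H2-K1 and H2-D1 each held the letters TGACG (part of a cyclic AMP response element, as in the X box) followed by ATTGG (an inverted CCAAT box, as in the Y box), with the first bases of the pair exactly 25 apart. Of 32851 promoters of the same length, 30 held this pair at this spacing on either strand (0.0913%). The spacing was noticed in these sequences before it was counted, so the count is a description. H2-M3, a heavy chain that presents formylated peptides, was the only one of 15 other class I heavy chains with a promoter in the table that held the pair at this spacing too. H2-Q7 held TGACG at -64 and ATTGG at -40, the same order at nearly the same spacing. The search asks for exact letters and spacing, so a promoter without a match may still hold a variant of the module. Each sequence below reads 5′ to 3′ and ends at the base before the gene's start; capitals mark TGACG, and likewise ATTGG, on either strand.
B2m: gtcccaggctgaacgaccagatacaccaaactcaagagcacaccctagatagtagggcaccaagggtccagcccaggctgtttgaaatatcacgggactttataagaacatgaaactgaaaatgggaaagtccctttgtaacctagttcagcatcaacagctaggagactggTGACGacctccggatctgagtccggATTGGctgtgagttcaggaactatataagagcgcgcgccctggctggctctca
H2-K1: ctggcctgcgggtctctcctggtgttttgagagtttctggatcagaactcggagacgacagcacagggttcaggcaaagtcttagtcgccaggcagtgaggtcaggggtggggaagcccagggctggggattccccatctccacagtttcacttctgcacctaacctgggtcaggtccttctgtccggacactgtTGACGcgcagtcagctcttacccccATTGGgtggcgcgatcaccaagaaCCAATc
H2-D1: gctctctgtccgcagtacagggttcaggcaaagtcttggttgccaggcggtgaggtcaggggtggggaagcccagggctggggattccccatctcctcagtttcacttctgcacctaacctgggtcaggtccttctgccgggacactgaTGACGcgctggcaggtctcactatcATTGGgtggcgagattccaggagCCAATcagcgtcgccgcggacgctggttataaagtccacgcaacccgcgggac
H2-M3: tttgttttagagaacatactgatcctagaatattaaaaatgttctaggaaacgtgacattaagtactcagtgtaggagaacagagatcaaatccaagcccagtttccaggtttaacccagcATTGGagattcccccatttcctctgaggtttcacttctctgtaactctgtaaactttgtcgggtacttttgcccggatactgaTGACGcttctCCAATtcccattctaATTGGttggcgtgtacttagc
Tap1: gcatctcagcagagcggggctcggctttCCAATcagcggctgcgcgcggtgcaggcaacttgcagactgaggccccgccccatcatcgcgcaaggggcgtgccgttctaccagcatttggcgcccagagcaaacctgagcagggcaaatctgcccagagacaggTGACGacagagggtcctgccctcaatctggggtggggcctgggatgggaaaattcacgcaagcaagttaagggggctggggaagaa
H2-Q4: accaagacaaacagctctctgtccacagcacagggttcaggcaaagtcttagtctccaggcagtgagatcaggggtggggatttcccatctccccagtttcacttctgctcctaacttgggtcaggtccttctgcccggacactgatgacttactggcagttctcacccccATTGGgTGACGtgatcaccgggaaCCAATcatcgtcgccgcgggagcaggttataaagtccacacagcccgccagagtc

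The positions in GRCm38.p6 are chr2:122147437-122147686 (+ strand) for B2m, chr17:34000334-34000583 (- strand) for H2-K1, chr17:35262844-35263093 (+ strand) for H2-D1, chr17:37269984-37270233 (+ strand) for H2-M3, chr17:34187306-34187555 (+ strand) for Tap1 and chr17:35379367-35379616 (+ strand) for H2-Q4. Counted back from the start, the pair began at -78 and -53 in B2m, at -55 and -30 in H2-K1 and at -101 and -76 in H2-D1. Tap1 is shown because it shares its promoter with Psmb9: the genes point away from each other with 225 bases between their starts, and these 225 bases are the same sequence in both entries. That stretch holds TGACG at -86 from the Tap1 start and CCAAT at -222, in another order and spacing. H2-Q4 is shown because its RNA correlated most with that of Nlrc5, as described further on; its ATTGG at -79 precedes a TGACG at -73. Singly, TGACG occurred in 5 of the 8 member promoters against 17.8% of all promoters, and ATTGG in 6 of 8 against 33.8%. In both counts Tap1 and Psmb9 hold the same site of their shared stretch, so it is counted for each of them.

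Other elements were searched on both strands. Among the members an interferon response element written as GAAANNGAAA was found in B2m alone, at -139, against 2.98% of all promoters. Of the other heavy chains, H2-T22 held it at -191 and H2-T23 at -124. The shorter form TTTCNNTTC stood in H2-K1 at -104 and in H2-D1 at -150, against 6.31%. A kappa B element written as GGGATTCCC stood in the same promoters at -124 and -170, against 0.301%. Among the members a STAT element written as TTCNNNGAA was found in Psmb8 alone, at -97, against 7.02%. Of the other heavy chains, H2-M3 held it at -209. The GC box GGGCGG occurred in 3 of 8, against 32.7%, and Tap1 and Psmb9 again share the same site. The short interferon form and the kappa B letters were chosen after the H2-K1 and H2-D1 sequences had been read. A match is a description of letters, and no match says only that these letters are not in the window.

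Of the rows, 7 lie together on chromosome 17 of build mm10 in the class I and class II region, H2-K1 at 33996012 to 34000333, Tapbp at 33919478 to 33929290, Psmb9 at 34182099 to 34187330, Tap1 at 34187556 to 34197225, Psmb8 at 34198195 to 34201454, Tap2 at 34204479 to 34216321 and H2-D1 at 35263094 to 35267497. B2m lies on chromosome 2 at 122147687 to 122153082, and Psmb10 (105935728 to 105938392) and Nlrc5 (94472763 to 94527272) lie on chromosome 8. Values are TPM, a length-corrected share of the library, divided by the whole genomic span of a gene, introns included, so a level compared between genes is per genomic span. The H2-D1 row overlaps the row of H2-L on the same strand, and 1.8% of the 150-base windows of its GENCODE M21 transcript also occur in H2-Q1, so its reads cannot be fully separated from those loci. The B2m span overlaps Patl2 on the opposite strand, and use of strand is not given in the sources used here. For the other 9 members, 0.0% of 150-base windows were shared with another gene.

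In the SPF isotype libraries the members covered a wide range of levels per genomic span. B2m was highest at a median of 4724 TPM, followed by H2-K1 at 2428 and H2-D1 at 1064 TPM. Psmb8 (271.0), Tapbp (153.3) and Psmb10 (151.6) formed the middle, and the ranges of Tapbp and Psmb10 overlapped. Tap1 stood at 84.21, Tap2 at 46.23, Psmb9 at 40.01 and Nlrc5 at 34.46 TPM, and among these neighbours the ranges of Tap2 and Psmb9 and of Psmb9 and Nlrc5 overlapped. The fewest reads behind any member in any library were 267, for Psmb9.

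Tested against isotype in SPF mice, aCD3 libraries had 7 members lower and 1 higher, and 2 did not pass the threshold. The lower ones were Nlrc5, H2-K1, Tap2, Psmb10, Psmb8, B2m and H2-D1, and the higher one was Tap1. Tapbp and Psmb9 did not pass. The background was large: of 12182 genes tested in this comparison 50.7% were called lower and 14.2% higher (limma on log2(TPM + 1), Benjamini-Hochberg adjusted p under 0.05). The median log2 fold change of the members was -0.46, and that of all genes was -0.35. A call of lower was thus the commonest outcome for any gene, and the differences among the members are described below. TPM is a share of a library: histone genes took 4.31% to 7.3% of TPM in SPF isotype and 24.07% to 27.15% in SPF aCD3 libraries. Changes of the members and of most pathway genes named are therefore also given after scaling libraries by the median of ratios, which brought the median of all genes from -0.347 to -0.014 and the background to 30.2% higher and 29.8% lower. After this scaling 3 members were lower (Nlrc5, H2-K1 and Tap2) and 3 higher (Tap1, Tapbp and Psmb9), with a median of -0.05; B2m, H2-D1, Psmb8 and Psmb10 lost their calls. In bulk RNA a lower value can stem from fewer cells of a type or from less RNA per cell, and these cannot be told apart.

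Nlrc5, the coactivator, changed most. It was 36.39, 35.07, 28.02, 36.59, 32.48 and 33.84 TPM in the 6 SPF isotype libraries, in the order F1 to F3 and M1 to M3. In the SPF aCD3 libraries it was 9.916, 11.42, 9.288, 8.645, 9.123 and 8.515 TPM in the same order. The highest aCD3 library lay below the lowest isotype library. The log2 fold change was -1.73 (SE 0.25, limma adjusted p = 5.72e-06), a 3.31-fold lower level, and only 2.0% of all tested genes had a lower value. After scaling it was -1.35 (SE 0.19, limma adjusted p = 3.519e-06), so the direction was kept.

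**Figure D1:**
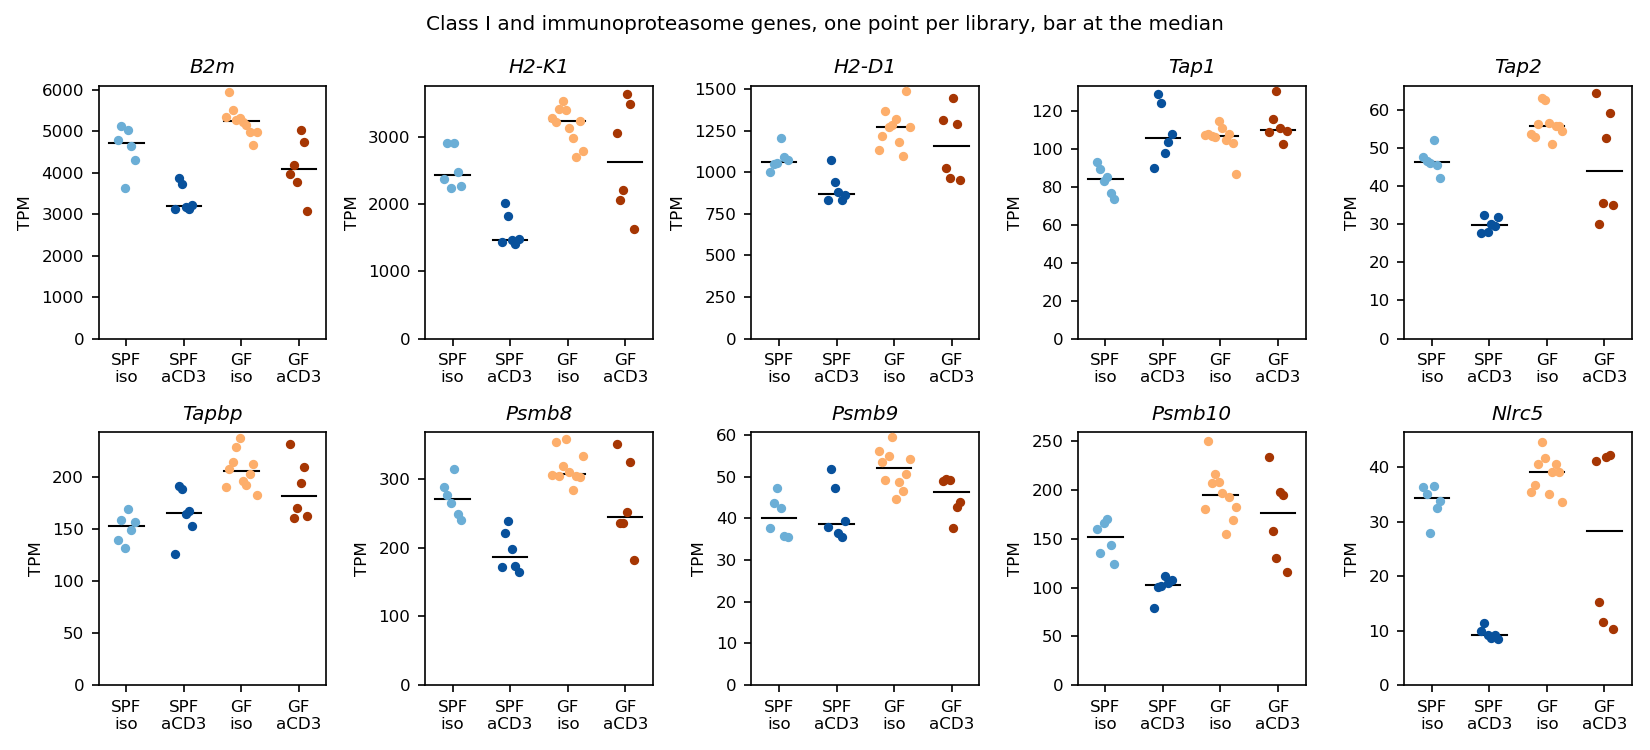
TPM of each of the 10 members (vertical axes, each from 0) in every library of the 4 groups (horizontal axes), with a bar at the group's median. Nlrc5 lies between 8.515 and 11.42 TPM in all SPF aCD3 libraries and between 28.02 and 36.59 TPM in SPF isotype, and the 6 GF aCD3 libraries are spread from 10.31 to 42.34 TPM.

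The chains of the class I molecule itself fell less. H2-K1, the classical K heavy chain, was 2242 to 2915 TPM in SPF isotype (median 2428) and 1405 to 2011 TPM in SPF aCD3 (median 1470), with no overlap. Its log2 fold change was -0.66 (SE 0.15, limma adjusted p = 0.0003432) and -0.25 after scaling (SE 0.10, limma adjusted p = 0.03004). B2m, the invariant light chain, was 3624 to 5139 TPM (median 4724) in isotype and 3130 to 3872 TPM (median 3194) in aCD3 libraries. The groups overlapped only through isotype replicate F3, where the ribosomal RNA precursor Rn45s took 22.92% of TPM against 13.15% to 14.89% in the other isotype libraries. B2m changed by -0.44 (SE 0.11, limma adjusted p = 0.0009147), and by -0.03 after scaling (limma adjusted p = 0.8236). H2-D1, the classical D heavy chain, was 999.8 to 1207 TPM in isotype and 833.4 to 1075 TPM in aCD3 libraries. Its -0.26 (SE 0.10, limma adjusted p = 0.02744) became 0.16 after scaling (limma adjusted p = 0.08148), so no direction is given for H2-D1 relative to other genes. The call was also lost without isotype M1, aCD3 F1 or aCD3 M2.

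The heavy chains therefore changed unequally, which a ratio within a library shows whatever the scaling. The log2 ratio of H2-K1 to H2-D1 was 1.08 to 1.47 in SPF isotype and 0.73 to 0.95 in SPF aCD3 libraries. All 6 aCD3 libraries lay below all isotype libraries, with a mean difference of -0.41. This ratio was chosen after the values were seen and was not tested. B2m, H2-K1 and H2-D1 hold the same TGACG and ATTGG pair in the sequences printed above, and their scaled changes ran from -0.25 to 0.16.

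The TAP transporter subunits went opposite ways. Tap1 was 92.89, 89.39, 83.09, 85.33, 76.97 and 73.82 TPM in SPF isotype (F1 to F3, then M1 to M3) and 90.01, 129.1, 124.5, 98.10, 103.8 and 107.7 TPM in SPF aCD3. Above every isotype library lay 5 of the 6 aCD3 libraries, and F1 lay within their range. The log2 fold change was 0.37 (SE 0.08, limma adjusted p = 0.0003045), and 0.78 after scaling (SE 0.12, limma adjusted p = 6.51e-06). Tap2, its partner, was 42.06 to 52.16 TPM in isotype (median 46.23) and 27.80 to 32.29 TPM in aCD3 libraries (median 29.74), with no overlap. Tap2 changed by -0.62 (SE 0.13, limma adjusted p = 0.0001523) and by -0.22 after scaling (SE 0.09, limma adjusted p = 0.03308). The log2 ratio of Tap1 to Tap2 was 0.71 to 0.96 in isotype and 1.70 to 2.16 in aCD3 libraries, a mean difference of 1.02 that was not tested because the pair was chosen after its values were seen. Tapbp, which encodes tapasin, was 132.3 to 170.0 TPM in isotype and 125.9 to 191.7 TPM in aCD3 libraries. Its change of 0.12 did not pass (limma adjusted p = 0.3047), whereas after scaling it was 0.53 (SE 0.08, limma adjusted p = 9.751e-06).

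The immunoproteasome subunits also differed among themselves. Psmb8, which replaces Psmb5, was 240.3 to 315.1 TPM in SPF isotype (median 271.0) and 164.3 to 239.4 TPM in SPF aCD3 (median 185.9), with no overlap. The log2 fold change was -0.49 (SE 0.11, limma adjusted p = 0.0005067), against -0.08 after scaling (limma adjusted p = 0.4938). Psmb10, which replaces Psmb7, was 124.3 to 170.6 TPM and 78.65 to 111.5 TPM, again with no overlap. That was a change of -0.57 (SE 0.13, limma adjusted p = 0.0007055), or -0.16 after scaling (limma adjusted p = 0.2388). Psmb9, which replaces Psmb6, was 35.54 to 47.28 TPM and 35.51 to 51.89 TPM. Its difference was 0.03 (limma adjusted p = 0.7649), whereas scaling gave 0.43 (SE 0.12, limma adjusted p = 0.003471). Psmb9 and Tap1, the divergent pair with the shared promoter, were both higher after scaling. Psmb8 and Tap2, their neighbours in the same stretch of chromosome 17, were not. Tapbp, which is not part of this pair, was also higher after scaling (0.53), as were 30.2% of all genes. The log2 ratio of Tap1 to Psmb9 rose by a mean of 0.34, so the pair did not change equally. For this ratio 5 of 6 aCD3 libraries lay above every isotype library. The ratio and the part of the shared promoter were not tested.

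**Figure D2:**
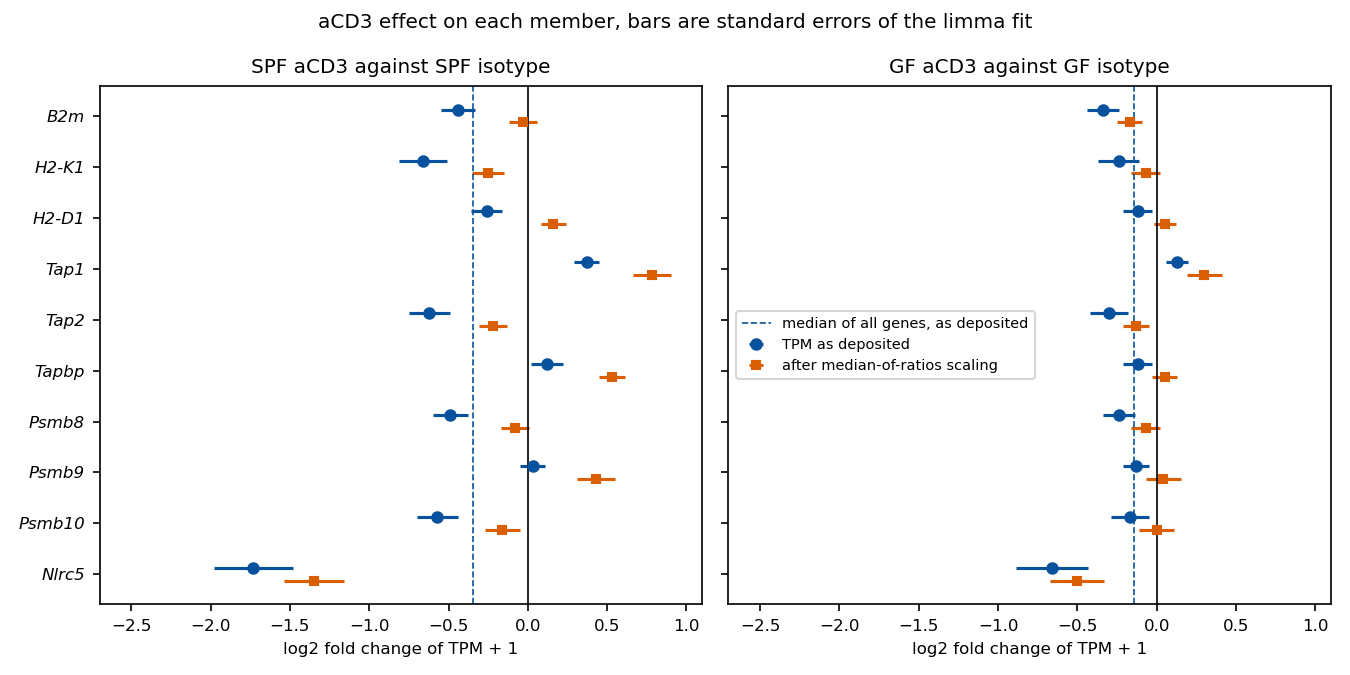
Log2 fold change of TPM + 1 for each member (rows) in SPF and in GF mice, from TPM as deposited (circles) and after median-of-ratios scaling (squares), with standard errors of the limma fit as bars. In SPF mice Nlrc5 stands at -1.73 and -1.35 and Tap1 at 0.37 and 0.78, and the other members lie between; the dashed line marks the median of all genes, -0.347 in SPF and -0.146 in GF mice.

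Each subunit was also set against the constitutive one it replaces, a comparison added after the values were seen. In SPF mice Psmb8 changed relative to its counterpart, and Psmb9 and Psmb10 did not pass. Psmb5 was 18.44 to 25.56 TPM in SPF isotype and 24.35 to 36.13 TPM in SPF aCD3, a change of 0.49 (SE 0.11, limma adjusted p = 0.0005232; 0.89 after scaling). The log2 ratio of Psmb8 to Psmb5 was 3.4 to 4.1 in isotype and 2.43 to 2.83 in aCD3 libraries. The mean ratio fell by 1.0, with 6 of 6 aCD3 libraries below every isotype library (two-sided exact permutation p = 0.00216, adjusted p = 0.00866 over 12 tests). The ratio of Psmb9 to Psmb6 differed by 0.04 (exact permutation p = 0.541, adjusted p = 0.812), and that of Psmb10 to Psmb7 by -0.15 (exact permutation p = 0.439, adjusted p = 0.753). Psmb6 itself differed by -0.01 (limma adjusted p = 0.9074), but after scaling it passed as higher (0.39, limma adjusted p = 0.01885). Psmb7 changed by -0.38 (limma adjusted p = 0.004715), and after scaling it did not pass (-0.01, limma adjusted p = 0.9304).

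**Figure D3:**
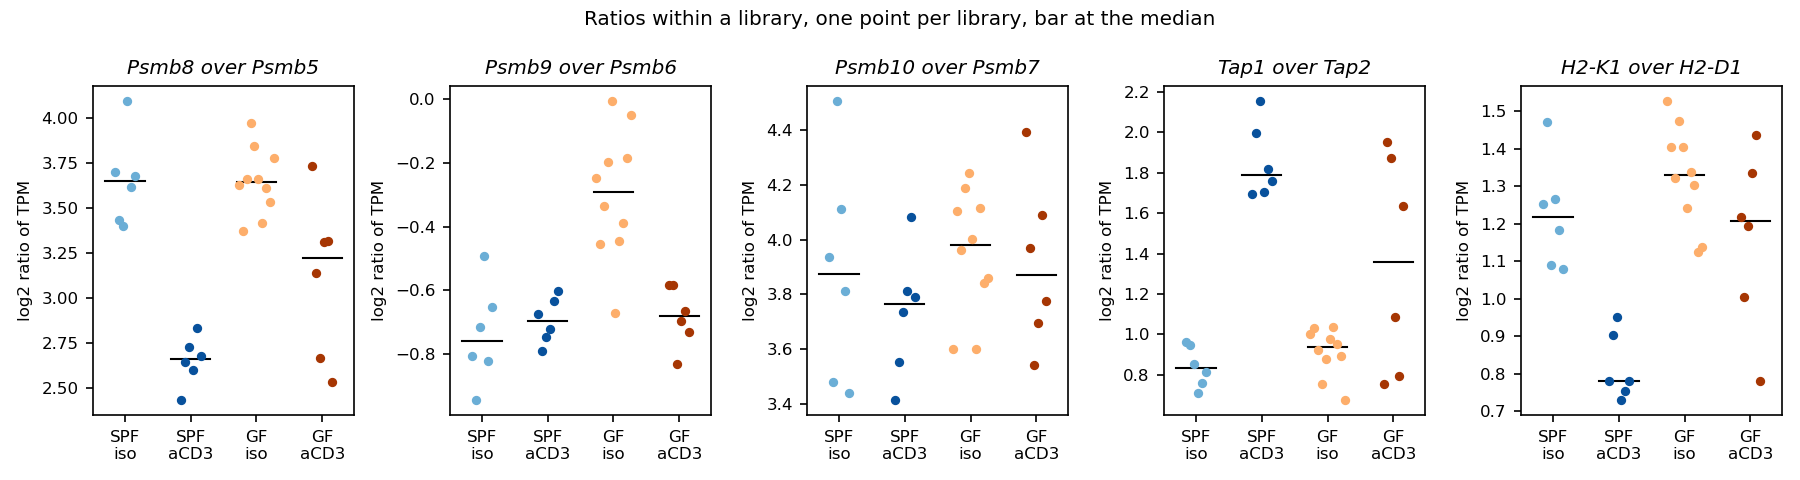
Log2 ratio of TPM within each library (vertical axes, not starting at 0) for 3 immunoproteasome subunits over their constitutive counterparts, for Tap1 over Tap2 and for H2-K1 over H2-D1, by group, with a bar at the median. Psmb8 over Psmb5 lies between 2.43 and 2.83 in SPF aCD3 against 3.4 to 4.1 in SPF isotype, and Tap1 over Tap2 between 1.70 and 2.16 against 0.71 to 0.96.

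Other class I heavy chains were led in size of change by the Q genes, nonclassical chains encoded beside H2-D1. Of 25 listed, 18 were tested, of which 12 were lower and 1 was higher in SPF aCD3; the list's median was -0.57, against -0.35 for all genes. After scaling 7 were lower and 5 higher, with a median of -0.23. Counts of heavy chains take each row as a gene, although some rows had nearly the same values. H2-Q7 and H2-Q9 had SPF isotype medians of 338.3 and 339.2 TPM, and H2-T9 and H2-T22 had 111.2 and 114.1 TPM. H2-Q6 fell from a mean of 363.4 to 78.84 TPM (-2.20, SE 0.26, limma adjusted p = 1.034e-06; -1.79 after scaling) and H2-Q8 from 243.8 to 57.23 TPM (-2.08, limma adjusted p = 1.371e-06; -1.67 after scaling), but their rows overlap and share reads. H2-Q4 was 255.0 to 339.8 TPM in isotype and 85.93 to 109.0 TPM in aCD3 libraries (-1.62, SE 0.23, limma adjusted p = 5.466e-06; -1.21 after scaling). H2-T24 was the only one of the 18 called higher, from 5.819 to 8.564 TPM in isotype to 9.771 to 18.64 TPM in aCD3 libraries (1.05, SE 0.17, limma adjusted p = 1.533e-05; 1.44 after scaling). H2-T23, which encodes Qa-1, the ligand of CD94-NKG2 receptors, changed by 0.07 (limma adjusted p = 0.5685; 0.48 after scaling). H2-M3, with the paired promoter letters, changed by -0.63 (limma adjusted p = 0.000893), but this call was lost after scaling (-0.23, limma adjusted p = 0.05578). The 8 tested heavy chains without the pair at that exact spacing ran from -2.20 (H2-Q6), -1.62 (H2-Q4), -1.47 (H2-Q10), -1.09 (H2-Q2) and -0.93 (H2-Q7) to 0.02 (Mr1), 0.07 (H2-T23) and 0.13 (H2-T22), on either side of H2-M3. H2-Q7 is among them although it holds TGACG and ATTGG in the same order at nearly the same spacing.

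Of 8 genes of peptide loading, folding and trimming, 4 were higher and 4 lower in SPF aCD3 (4 and 3 after scaling). Of all genes 14.2% were higher and 50.7% lower, and after scaling 30.2% were higher and 29.8% lower. The higher ones were chaperones of the endoplasmic reticulum: Calr rose from a mean of 481.8 to 707.1 TPM (0.55, SE 0.10, limma adjusted p = 6.159e-05; 0.96 after scaling), Pdia3 by 0.49 (limma adjusted p = 0.0002339; 0.91 after scaling), Canx by 0.40 (limma adjusted p = 0.001542; 0.81 after scaling) and Hspa5 by 0.34 (limma adjusted p = 0.008941; 0.75 after scaling). Among the lower ones, Lnpep, an aminopeptidase, fell from 33.94 to 17.09 TPM (-0.95, limma adjusted p = 2.377e-05), and Erap1, the aminopeptidase that trims class I peptides in the endoplasmic reticulum, fell by 0.60 (limma adjusted p = 5.679e-05). Both stayed lower after scaling, at -0.56 and -0.21. The other lower ones were Uggt1, a folding sensor (-0.58, limma adjusted p = 0.0003173; -0.21 after scaling), and Tapbpl, a tapasin-related chaperone (-0.60, limma adjusted p = 0.001112), whose call was lost after scaling (-0.21, limma adjusted p = 0.1337). Of 9 genes for proteasome activators and assembly, 1 was higher and 3 lower (4 higher and 0 lower after scaling): Pomp, the maturation factor of new proteasomes, rose from a mean of 16.19 to one of 23.87 TPM (0.53, SE 0.07, limma adjusted p = 4.38e-06; 0.93 after scaling), Psmg1, an assembly chaperone, changed by -0.54 (limma adjusted p = 0.001171; -0.20 after scaling), and Psme1, an activator subunit, by -0.28 (limma adjusted p = 0.002843; 0.13 after scaling). Of 11 other core subunits, 5 were higher and 1 lower, and after scaling 10 were higher and 0 lower. Psma1 (0.58, limma adjusted p = 9.886e-05; 0.99 after scaling) and Psma4 (0.45, limma adjusted p = 0.003007; 0.86 after scaling) led these, and Psma3 changed by -0.27 (limma adjusted p = 0.01346; 0.12 after scaling).

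Of 8 tested transcription factor genes of the class I promoter, 6 were lower and 0 higher, against 50.7% of all genes lower. After scaling 3 were lower, and Nfyb (0.52, limma adjusted p = 1.868e-05) and Atf1 (0.37, limma adjusted p = 0.0003289), which had not passed as deposited, were higher. Rfx5, the DNA-binding subunit of the X box complex, fell from a mean of 21.62 to 11.23 TPM (-0.90, SE 0.17, limma adjusted p = 7.174e-05; -0.51 after scaling). Nfyc, a subunit of the Y box factor NF-Y, changed by -0.65 (limma adjusted p = 0.0001883; -0.29 after scaling). Ciita, the coactivator of class II genes, was at most 0.405 TPM in any SPF library. All 5 NF-kappa B subunit genes were lower, led by Relb (-1.15, limma adjusted p = 4.617e-05; -0.76 after scaling) and Nfkb1 (-1.04, limma adjusted p = 5.286e-05; -0.65 after scaling).

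Of 16 genes of interferon signalling, 11 were lower and 3 higher in SPF aCD3, and 5 were lower and 4 higher after scaling. Of all genes 50.7% were lower and 14.2% higher, and after scaling 29.8% were lower and 30.2% higher. Ifng, which encodes interferon gamma, was 180.3 to 255.0 TPM in isotype and 247.4 to 358.4 TPM in aCD3 libraries (0.46, SE 0.13, limma adjusted p = 0.003513; 0.87 after scaling). Irf1, a transcription factor induced by interferon gamma, was 195.3 to 254.1 TPM in isotype and 93.67 to 133.5 TPM in aCD3 libraries (-0.94, SE 0.17, limma adjusted p = 3.805e-05; -0.53 after scaling). Irf8 was the gene of this list that rose most, from a mean of 3.243 to 9.843 TPM (1.36, SE 0.20, limma adjusted p = 6.803e-06; 1.73 after scaling), and Jak2, a kinase of the interferon gamma receptor, fell most, from 98.71 to 39.50 TPM (-1.28, SE 0.19, limma adjusted p = 6.858e-06; -0.87 after scaling).

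Markers of other cells were checked because every nucleated cell expresses class I genes. The 8 markers of CD4 T cells found in the table summed to 1774 to 2308 TPM in SPF isotype and 1759 to 2017 TPM in SPF aCD3. B cell and plasma cell markers summed to 95.8 to 271.6 TPM and 2.553 to 8.821 TPM, in isotype libraries mostly Jchain, a plasma cell gene, and in aCD3 libraries mostly Cd79b, a B cell receptor chain. Jchain had a median of 171.1 TPM in isotype and 0.7155 TPM in aCD3 libraries (-6.53, limma adjusted p = 1.36e-06), and Cd79b of 6.646 and 4.918 TPM. Mzb1, another plasma cell gene, had medians of 2.151 TPM and 0.0 TPM, and Ms4a1 and Pax5 were under 1 TPM in all libraries of both groups. The class II list summed to 23.56 to 29.21 TPM and 8.27 to 11.03 TPM, and the stroma list to 15.01 to 50.85 TPM and 2.858 to 6.017 TPM. Csf1r, Itgam, Adgre1, Flt3 and Clec9a, defining markers of myeloid and dendritic cells, were under 1 TPM in all SPF libraries, while the list of 10 summed to 59.82 to 89.86 TPM in isotype and 116.7 to 154.4 TPM in aCD3 libraries. Its other genes were Cst3 (47.33 to 68.74 and 43.84 to 74.35 TPM), Cd68 (at most 9.844 and 54.45 to 105.8 TPM, higher by 3.83), Xcr1, a dendritic cell gene (5.61 to 11.49 and 3.922 to 7.031 TPM), Itgax (at most 2.453 and 0.84 TPM) and Lyz2 (at most 1.362 and 0.503 TPM). In GF mice the class II list ran from 15.15 to 53.08 TPM in isotype and 11.42 to 54.16 TPM in aCD3 libraries, and the B cell and plasma cell list up to 114.4 TPM and 97.71 TPM. The 2 CD8 markers summed to 5.682 to 13.47 TPM in SPF isotype and 9.751 to 23.83 TPM in SPF aCD3, and to 1.253 to 61.21 TPM in GF isotype (median 2.9) and 3.466 to 13.01 TPM in GF aCD3. The epithelium list reached 23.36 and 12.36 TPM in SPF isotype and aCD3 and 71.28 and 29.33 TPM in GF isotype and aCD3. The part of these cells in the members' values was not tested.

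In GF mice the aCD3 libraries differed widely among themselves. B2m was the only member called (-0.34, SE 0.10, limma adjusted p = 0.04841; -0.17 after scaling, limma adjusted p = 0.1561), in a comparison where 4.61% of genes were called lower and 2.46% higher and no gene had an adjusted p below 0.04815. The B2m call was lost without any single GF isotype replicate, or without aCD3 M1, M2 or M5. The other 9 members did not pass: besides Nlrc5, the differences were -0.30 for Tap2, -0.24 for H2-K1 and Psmb8, -0.17 for Psmb10, -0.13 for Psmb9, -0.12 for H2-D1 and Tapbp and 0.13 for Tap1 (limma adjusted p from 0.07884 to 0.344). Nlrc5 was 15.36 TPM in M1, 11.64 in M2 and 10.31 in M5, but between 41.20 TPM (F1) and 42.34 TPM (M4) in F1, M3 and M4. The GF isotype libraries ran from 33.57 to 44.62 TPM, so M1, M2 and M5 lay below all of them, at levels near those of SPF aCD3, and F1, M3 and M4 lay within them. The fitted change was -0.66 (SE 0.23, limma adjusted p = 0.05898). These are the libraries that also differ in Lag3, as given at the start. Without F1, M3 or M4, each left out alone, the Nlrc5 change was -0.86, -0.83 or -0.84 and passed (limma adjusted p = 0.01411, 0.009074 and 0.01223). Without M1, M2 or M5 it was -0.57, -0.50 or -0.47 and did not (limma adjusted p = 0.1807, 0.2034 and 0.2157). These values are given per library, and no test was made between libraries told apart by their outcome.

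The same libraries stood apart in some other members in TPM as deposited. H2-K1 was 2062, 2213 and 1633 TPM in M1, M2 and M5 and 3052, 3646 and 3492 TPM in F1, M3 and M4, against 2708 to 3541 TPM in GF isotype. After scaling H2-K1 was 2310, 2476 and 1965 in M1, M2 and M5 and 2675, 2942 and 2998 in F1, M3 and M4. M2 then lay within the GF isotype range of 2447 to 2917. B2m overlapped as deposited. It was 4199, 3770 and 3089 TPM in M1, M2 and M5 and 3960, 5030 and 4753 TPM in F1, M3 and M4. Tap2 was 29.98, 35.64 and 35.12 TPM in M1, M2 and M5 and 64.38, 52.45 and 59.13 TPM in the others, against 50.97 to 63.16 TPM in GF isotype. After scaling this gap nearly closed. Tap2 was then 33.59, 39.88 and 42.25 in M1, M2 and M5 and 56.45, 42.33 and 50.77 in F1, M3 and M4. Scaled GF isotype libraries ran from 44.25 to 53.66, so M3 lay below them. Histone genes took 23.42% to 26.31% of TPM in M1, M2 and M5 and 5.67% to 7.79% in F1, M3 and M4. In TPM as deposited Tap1 overlapped: it was 116.1, 130.4 and 109.2 TPM in M1, M2 and M5 and 108.7, 111.2 and 102.7 TPM in F1, M3 and M4. After scaling it did not overlap, at 130.0, 145.9 and 131.4 in M1, M2 and M5 and 95.34, 89.70 and 88.13 in F1, M3 and M4. Irf1 was 121.1, 130.0 and 115.0 TPM in M1, M2 and M5 and 235.4, 263.2 and 252.9 TPM in F1, M3 and M4. The sample numbers in the column names put the GF libraries into runs of 25 to 33 and 48 to 54, and both runs hold aCD3 libraries at each end of the Nlrc5 range: M1 and M2 with M3 in the former, M5 with F1 and M4 in the latter. Fitted within either run alone, 0 members were called.

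**Figure D4:**
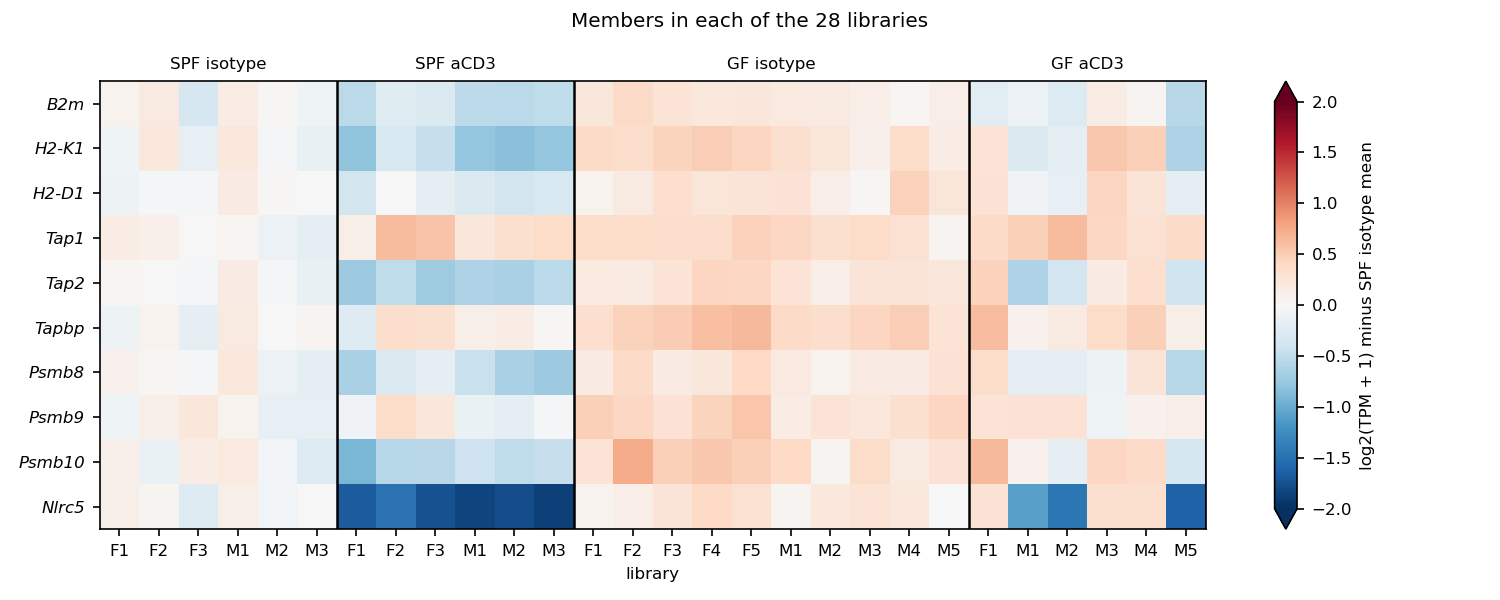
Log2(TPM + 1) of each member (rows) in each of the 28 libraries (columns, by group) minus the mean of the SPF isotype libraries, as colour from -2 to 2. Nlrc5 is low in all SPF aCD3 libraries and in GF aCD3 M1, M2 and M5 only, and in GF aCD3 F1, M3 and M4 it was between 41.20 and 42.34 TPM.

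In GF mice the ratios of Psmb8 to Psmb5 and of Psmb9 to Psmb6 were lower in the libraries labelled aCD3. These permutation tests leave out sex and run, although F1 is the only female GF aCD3 library. The log2 ratio of Psmb8 to Psmb5 was 3.37 to 3.97 in GF isotype and 2.53 to 3.73 in GF aCD3, a mean difference of -0.53 with 5 of 6 aCD3 libraries below every isotype library (exact permutation p = 0.00699, adjusted p = 0.021). Without aCD3 M1 the difference was -0.54 and without M2 -0.44, and the call was lost (exact permutation adjusted p = 0.0539 and 0.0559). Without M5 it was -0.42 and still passed (exact permutation adjusted p = 0.0448). The ratio of Psmb9 to Psmb6 was -0.67 to -0.01 in GF isotype and -0.83 to -0.58 in GF aCD3, a mean difference of -0.38 with 3 of 6 below every isotype library (exact permutation p = 0.000999, adjusted p = 0.00599). Psmb9 and Psmb6 were 48.87 and 73.27 TPM in F1, 37.81 and 61.30 in M3, and 42.78 and 67.87 in M4. They were 49.36 and 73.91 TPM in M1, 49.30 and 87.70 in M2, and 43.90 and 72.87 in M5. This ratio thus overlapped between the libraries low and high in Lag3. For Psmb8 to Psmb5, M3 and M4 were among the 5 below isotype and F1 was not. Whether these falls are a response to the antibody was not tested. Within the earlier run of sample numbers the differences were -0.52 and -0.28 (exact permutation adjusted p = 0.0714 for both), and within the later run -0.59 and -0.55 (exact permutation adjusted p = 0.171 for both). In the later run the few libraries allow no exact permutation p below 0.0571, so no ratio could pass there. In the earlier run the smallest possible was 0.0238, which Psmb8 to Psmb5 reached before adjustment. Psmb5 differed by 0.27 (limma adjusted p = 0.0773), Psmb6 by 0.25 (limma adjusted p = 0.06952) and Psmb7 by -0.15 (limma adjusted p = 0.291). After scaling Psmb5 (0.43, limma adjusted p = 0.04669) and Psmb6 (0.42, limma adjusted p = 0.04646) passed as higher. Of the pathway genes, Irf1 (-0.58, limma adjusted p = 0.04815), Ifnar2 (-0.57, limma adjusted p = 0.04815), Rfx5 (-0.50, limma adjusted p = 0.04964) and Lnpep (-0.50, limma adjusted p = 0.04841) were called lower and Pomp higher (0.24, limma adjusted p = 0.04815). Rfx5 lost its call after scaling (-0.34, limma adjusted p = 0.06119), where Irf1 and Ifnar2 were at -0.41, Lnpep at -0.33 and Pomp at 0.40. With any single GF isotype library left out, or aCD3 M1, M2 or M5, limma called 0 genes in this comparison, so these calls share the limit given for B2m. Ifng differed by -0.06 (limma adjusted p = 0.7447). None of the 18 other heavy chains tested was called by limma in this comparison, and H2-Q6 came to -0.75 (limma adjusted p = 0.0512).

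Between the isotype groups, GF libraries had higher Tapbp, Tap1 and Psmb9. Tapbp was 182.6 to 237.6 TPM in GF isotype (median 205.9), above the SPF isotype range of 132.3 to 170.0 TPM in 10 of 10 libraries. The log2 fold change was 0.45 (SE 0.09, limma adjusted p = 0.003791), and 0.29 after scaling (limma adjusted p = 0.04422). Tap1 was higher by 0.34 (SE 0.07, limma adjusted p = 0.005968) and Psmb9 by 0.36 (SE 0.07, limma adjusted p = 0.004743), with 9 and 8 of 10 GF libraries above every SPF library, but neither passed after scaling (0.17 and 0.19). The other 7 members did not pass: Psmb10 differed by 0.38 (limma adjusted p = 0.05212), H2-K1 by 0.33, Tap2 by 0.26, H2-D1 and Psmb8 by 0.22, B2m by 0.20 and Nlrc5 by 0.19. Markers of other cells moved with this comparison. The stroma list summed to 15.01 to 50.85 TPM in SPF isotype and 7.612 to 13.81 TPM in GF isotype, where Col1a2, Col3a1, Dcn, Lum and Pdgfra were under 1 TPM in all libraries. The B cell and plasma cell list had a median of 179.7 TPM in SPF and 33.83 TPM in GF isotype (95.8 to 271.6 and at most 114.4 TPM), and Jchain was lower in GF (-2.42, limma adjusted p = 0.03454). The myeloid and dendritic list summed to 59.82 to 89.86 and 74.6 to 116.5 TPM, and the erythroid list to 2.29 to 10.19 and 0.993 to 2.662 TPM. The part of these cells in the member differences was not tested. In this comparison 6.42% of genes were called higher and 0.755% lower, and the median of all genes was 0.15. The ratio of Psmb9 to Psmb6 was higher in GF isotype by 0.44, with 9 of 10 libraries above every SPF isotype library (exact permutation p = 0.000749, adjusted p = 0.00599). Of the other heavy chains, H2-T24 (0.51, limma adjusted p = 0.03736) and H2-T23 (0.31, limma adjusted p = 0.04328) were called higher, as were Pomp (0.41, limma adjusted p = 0.0006239), Psma5 (0.45, limma adjusted p = 0.003029), Psmb4 (0.37, limma adjusted p = 0.00405), Nfyb (0.21, limma adjusted p = 0.03039), Irf8 (0.68, limma adjusted p = 0.0208) and Ifnar1, a type I interferon receptor chain (0.75, limma adjusted p = 0.01185). Of these 8, Ifnar1 alone passed after scaling (0.59, limma adjusted p = 0.01452). The column names number SPF libraries 1 to 12 and GF libraries from 25 on, and a difference between GF and SPF mice therefore cannot be told apart from one between runs.

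Between the aCD3 groups, 8 members were higher in GF mice, all but Tap1 and Tapbp, against a background of 48.9% of genes called higher and 4.46% lower and a median of 0.34 over all genes. Psmb10 was 116.3 to 233.5 TPM in GF aCD3, above the 78.65 to 111.5 TPM of SPF aCD3 in 6 of 6 libraries (0.78, SE 0.14, limma adjusted p = 0.000348; 0.37 after scaling). H2-K1 was higher by 0.75 (SE 0.15, limma adjusted p = 0.0006388; 0.34 after scaling) and Nlrc5 by 1.26 (SE 0.25, limma adjusted p = 0.0006841; 0.88 after scaling), each with 5 of 6 GF libraries above every SPF library. For Nlrc5 the GF libraries at isotype levels, F1, M3 and M4, lay furthest above, and M1, M2 and M5 (10.31 to 15.36 TPM) lay near the SPF aCD3 range of 8.515 to 11.42 TPM. H2-K1 showed the same order: SPF aCD3 libraries ran from 1405 to 2011 TPM, M1, M2 and M5 from 1633 to 2213 TPM, and F1, M3 and M4 from 3052 to 3646 TPM. After scaling these 3 were called higher and Tap1 lower (-0.31, limma adjusted p = 0.04634). Of the 8, B2m, H2-D1 and Psmb9 changed sign under scaling, from 0.30, 0.36 and 0.20 to -0.11, -0.05 and -0.20. Tap2 was higher by 0.59 (limma adjusted p = 0.001138) and Psmb8 by 0.47 (limma adjusted p = 0.002026). Scaling ended both calls (0.19 and 0.07). Tapbp differed by 0.21 (limma adjusted p = 0.08216) and Tap1 by 0.09 (limma adjusted p = 0.3431). The Psmb9 call was lost without 9 of the 12 libraries taken singly, and that of B2m without GF aCD3 M3 or M4. Of the pathway genes, H2-Q5 (1.57, limma adjusted p = 0.000236; 1.17 after scaling) and H2-Q8 (1.56, limma adjusted p = 0.0002057; 1.16 after scaling) led 11 of 18 heavy chains called higher. Ifng was lower in GF aCD3 (-0.48, limma adjusted p = 0.00526; -0.88 after scaling), while Ifnar1 (0.95, limma adjusted p = 0.0009271), Jak2 (0.85, limma adjusted p = 0.00126), Nfkb1 (1.0, limma adjusted p = 0.0005753), Relb (0.78, limma adjusted p = 0.004209), Rfx5 (0.65, limma adjusted p = 0.003878) and Nfyc (0.58, limma adjusted p = 0.001728) were higher. Among loading and proteasome genes, Tapbpl (0.70, limma adjusted p = 0.001131), Uggt1 (0.66, limma adjusted p = 0.0005942), Psmg1 (0.63, limma adjusted p = 0.001168), Psme2 (0.52, limma adjusted p = 0.002401), Psmb7 (0.52, limma adjusted p = 0.001255), Psma5 (0.33, limma adjusted p = 0.008581) and Psmb1 (0.28, limma adjusted p = 0.004226) were higher, and Pdia3 (-0.32, limma adjusted p = 0.01536) and Hspa5 (-0.30, limma adjusted p = 0.0269) were lower. Scaling turned Psma5 (-0.02) and Psmb1 (-0.12) below 0 and ended the calls of Psme2 (0.13), Psmb7 (0.15), Psmg1 (0.30), Tapbpl (0.31), Rfx5 (0.26) and Relb (0.40). This comparison and the SPF comparison share the SPF aCD3 libraries.

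The difference of the aCD3 effects, GF minus SPF, was tested as an interaction. None of the 10 members passed in limma on TPM as deposited, where 2.44% of genes were called higher and 1.04% lower; Nlrc5, H2-K1, Psmb10 and Tap1 had an unadjusted p under 0.05. Nlrc5 had a difference of 1.06 (SE 0.33, limma adjusted p = 0.05904), and it passed without SPF isotype F3 or without GF aCD3 M1, M2 or M5. The others were 0.42 for H2-K1, 0.40 for Psmb10, 0.33 for Tap2, 0.25 for Psmb8, 0.14 for H2-D1, 0.10 for B2m, -0.16 for Psmb9 and -0.24 for Tap1 and Tapbp (limma adjusted p from 0.1285 to 0.6293). After scaling 3 members passed, Nlrc5 at 0.84 (SE 0.26, limma adjusted p = 0.03876), Tapbp at -0.48 (SE 0.11, limma adjusted p = 0.01412) and Tap1 at -0.49 (SE 0.16, limma adjusted p = 0.04722). Of the other heavy chains, H2-Q6 (1.45, limma adjusted p = 0.0281), H2-Q8 (1.44, limma adjusted p = 0.02689), H2-Q5 (1.41, limma adjusted p = 0.03171) and H2-T24 (-0.88, limma adjusted p = 0.03637) passed as deposited.

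Across the 28 libraries, 6 members correlated closely with Nlrc5 in TPM as deposited and 3 did not. On log2(TPM + 1), Pearson's r with Nlrc5 was 0.94 for Tap2, 0.93 for H2-K1, 0.88 for Psmb8, 0.87 for B2m, 0.85 for Psmb10 and 0.84 for H2-D1. It was 0.48 for Tapbp, 0.31 for Psmb9 and -0.29 for Tap1. With group means removed this split did not hold for Tapbp: r was 0.86 for Tap2, 0.84 for H2-K1, 0.75 for H2-D1, 0.66 for Psmb10, 0.65 for Psmb8, 0.62 for B2m and 0.61 for Tapbp, against -0.13 for Tap1 and -0.14 for Psmb9. After scaling it was 0.78 for H2-K1, 0.75 for Tap2, 0.50 for Psmb10, 0.33 for Psmb8, 0.13 for B2m and -0.33 for H2-D1, so among these 6 it was above 0.50 for H2-K1 and Tap2 only. It was -0.86 for Tap1, -0.64 for Psmb9 and -0.57 for Tapbp, while Tap1 and Psmb9 correlated with each other at 0.78. The libraries belong to 4 groups and TPM share a total, so these values describe the spread and carry no test.

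**Figure D5:**
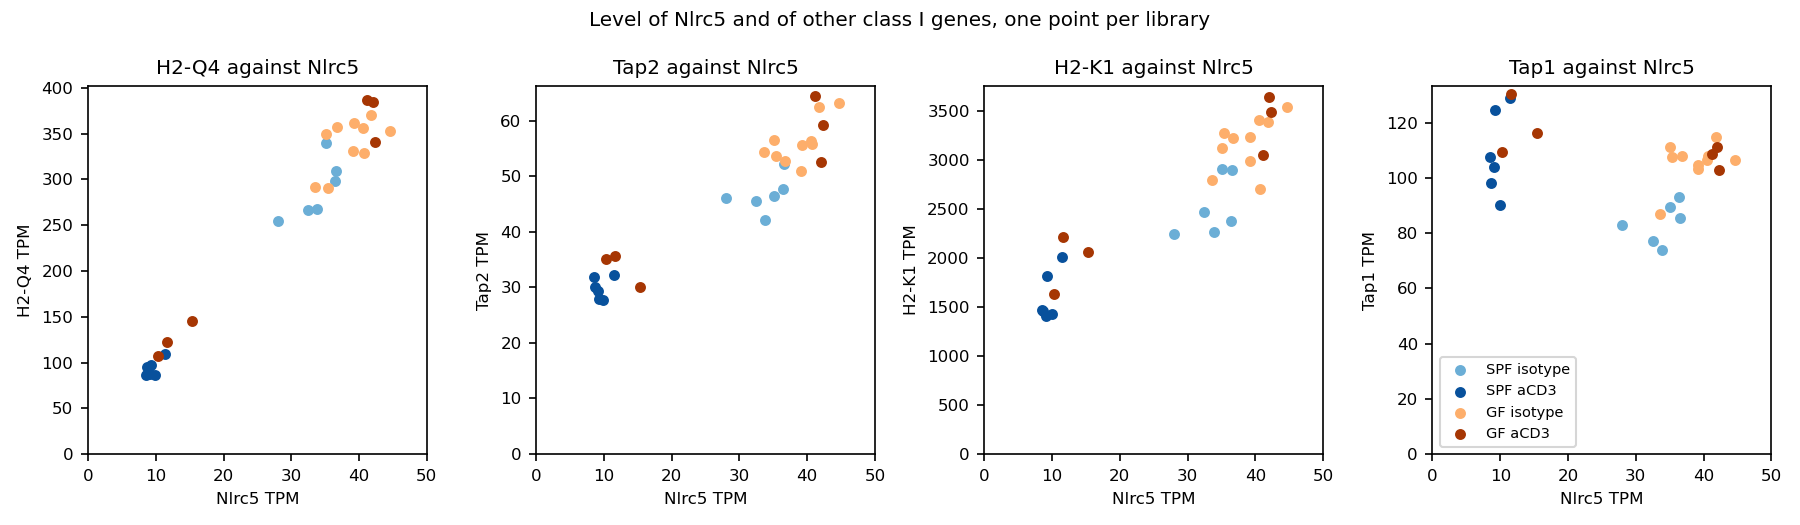
TPM of H2-Q4, Tap2, H2-K1 and Tap1 (vertical axes, from 0) against TPM of Nlrc5 (horizontal axes, from 0), with a point for each of the 28 libraries coloured by group. In H2-Q4, Tap2 and H2-K1 the libraries low in Nlrc5 are low, and in Tap1 they lie between 90.01 and 130.4 TPM and overlap the others.

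The gene whose pattern was most like that of Nlrc5 was H2-Q4, with r = 0.992 over the 28 libraries, ahead of Cd40lg, Mppe1, Rasgrp1 and Jade2 (each 0.988). In the GF aCD3 libraries H2-Q4 was 145.9, 122.3 and 107.1 TPM in M1, M2 and M5 and 387.1, 384.7 and 341.2 TPM in F1, M3 and M4. The most opposite genes were Serpine2 (-0.981), Tnip3, Havcr2, Anxa2 and Lag3 (-0.972). H2-Q4 remained first after scaling (0.986). The search for Nlrc5 alone was added after its values were seen. For the mean of the 10 members, each scaled to the same spread, the nearest genes were Id2 (0.952), Tmbim6 (0.945), Sec24c, Tmem128 and Dad1. After scaling the nearest were Parp10 (0.644), Id2 (0.635), Ctdsp1, Dctn6 and Zbtb7b, so that of these genes Id2 alone was among the nearest both ways. With group means removed they were H2-Q7 (0.928), H2-Q9 (0.927), Tmbim6, Clcn7 and Itm2c, where the H2-Q7 and H2-Q9 rows overlap and share reads.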

How the data were processed

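RNA of sorted small-intestinal CD4+ T cells was measured in 28 libraries. Per the file headers, the authors deposited TPM made with HOMER's analyzeRepeats.pl on mm10, condensed to genes, and in 99.24% of rows the length used is the genomic span. The aligner version, read filters and use of strand are not given in the sources used here; per the labels a total RNA kit was used, although the molecule is labelled polyA RNA. Another 26 columns match no sample and were not used. TPM times length gave whole reads (within 0.1 reads in 100.0% of low values), 6765527 to 17860588 per library, so the smallest depth set the precision; 3 reads were worth at most 1.213 TPM for any member.

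Genes with at least 1 TPM in at least 6 libraries (12182) were tested with limma (3.58.1, R 4.3.3) on log2(TPM + 1), with 1 coefficient per group plus sex, fitted to all 28 libraries, and Benjamini-Hochberg adjustment per comparison at 0.05. Such fold changes understate low genes. Ratios, added after the values were seen, were compared with two-sided exact permutation tests (SciPy 1.17.1). Unlike the limma fits, these tests take no account of sex, and they take none of run. Scaling, filters, pseudocounts, weights, covariates, a replicate block and left-out libraries were tried as alternatives, and fits were tested on simulated data. The members and lists were chosen with earlier results of these data known. All 10 members were named in every comparison; from each other list, the 2 highest and 2 lowest changes past the threshold with a group mean of at least 5 TPM were taken, with Ifng, Irf1 and Psmb5 to Psmb7 always given; some genes of these lists are not reported here. Other heavy chains named in SPF mice, Canx, Hspa5, Ciita, Cd68 and Lag3 were added after their values were seen.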

Additional observations from a re-analysis of the deposited data

Results flagged for a closer look

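Each member was screened in each group for a single distant library, which chance alone flags in about 1 in 20 sets. Of 40 sets, 2 were picked out, as many as the 2 that chance gives. Psmb10 was 78.65 TPM in SPF aCD3 replicate F1, below the 100.5 to 111.5 TPM of the other 5 libraries. Tap1 was 86.85 TPM in GF isotype replicate M5, below the 103.3 to 114.7 TPM of the other 9. The spread of Nlrc5 in GF aCD3, where 3 libraries stood at each end, does not show as a single distant library.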

How the results depend on the processing

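Of 1480 member values under alternatives, 1342 kept their side of the threshold, 23 of them with another sign but no call under either setting, 67 lost the call, 59 gained it and 12 reversed. Scaling by median of ratios reversed H2-D1 in SPF aCD3 against isotype (0.16) and, in GF against SPF aCD3, B2m (-0.11), H2-D1 (-0.05), Tap1 (-0.31) and Psmb9 (-0.2); voom on recovered reads gave 0.16, -0.1, -0.05, -0.32 and -0.24. Quantile normalization gave -0.07 for Psmb9 in GF against SPF aCD3, and TPM without Rn45s and histone genes 0.02 for H2-D1 in SPF aCD3 against isotype. In SPF aCD3 against isotype, 8 members called became 1 when the log2 fold change also had to reach 1, and 7 to 8 without each library in turn. For GF aCD3 against isotype the 1 call became 0 with pseudocount 0.1, no filter, median of ratios, TPM without Rn45s and histone genes, voom, the compared groups only, the same demand on fold change, or runs 25 to 33 and 48 to 54 alone, 3 with array weights, without the sex term or with a run covariate, and 2 with a run covariate after scaling. Without single libraries it ran from 0 to 4: 0 without any GF isotype replicate or GF aCD3 M1, M2 or M5, and 4 without GF aCD3 F1, M3 or M4. For GF against SPF isotype the 3 calls became 1 with median of ratios, quantile normalization or voom, 9 without Rn45s and histone genes, 7 with array weights, 8 with the compared groups only and 0 with the fold demand, and 3 to 4 without single libraries. For GF against SPF aCD3 the 8 became 4 with median of ratios or voom and 1 with the fold demand, and 6 to 8 without single libraries. For the difference of effects the 0 became 3 with median of ratios or voom, 1 with quantile normalization or without Rn45s and histone genes, and 0 to 3 without single libraries: 1 without SPF isotype F3, GF aCD3 M1 or M2, and 3 without GF aCD3 M5. Over all genes, the main count and the range over settings and without single libraries were 7898, 1940 to 8783 and 7426 to 8060 for SPF aCD3 against isotype, 862, 0 to 3636 and 0 to 4213 for GF aCD3 against isotype, 874, 49 to 2362 and 325 to 990 for GF against SPF isotype, 6496, 667 to 6539 and 4880 to 7231 for GF against SPF aCD3, and 424, 17 (replicate block) to 1824 (voom) and 32 to 3187 for the difference of effects. The cause of these shifts was not tested.

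Scaling cannot change a ratio within a library. Without single libraries the difference in Psmb8/Psmb5 ran from -1.05 to -0.92 in SPF aCD3 against isotype, -0.65 to -0.42 in GF aCD3 against isotype, -0.06 to 0.08 in GF against SPF isotype and 0.34 to 0.58 in GF against SPF aCD3. In the same order Psmb9/Psmb6 ran from 0.0 to 0.09, -0.43 to -0.35, 0.4 to 0.49 and -0.01 to 0.04, and Psmb10/Psmb7 from -0.24 to -0.03, -0.14 to 0.03, -0.02 to 0.19 and 0.08 to 0.25. The GF aCD3 call of Psmb8/Psmb5 was lost without M1 or M2, and GF against SPF aCD3 gained it without GF aCD3 M5. Within GF sample numbers 25 to 33 and 48 to 54 the GF aCD3 differences were -0.52 and -0.59 for Psmb8/Psmb5 and -0.28 and -0.55 for Psmb9/Psmb6, none of them past the threshold by exact permutation. In 48 to 54 so few libraries allow no exact permutation p below 0.0571, so no ratio could pass there. In 25 to 33 the smallest possible was 0.0238 before adjustment, which Psmb8/Psmb5 reached. The missing calls therefore do not show that the differences are absent within runs.

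The replicate block gave 0 members for GF aCD3 against isotype and changed no other count of members by over 1.5 times. Same-named libraries correlated at -0.031 to 0.103 in SPF and -0.208 to 0.198 in GF mice, and 2 of 6 and 1 of 6 correlated best with their own name, so the names were not taken to pair animals. Low genes are understated by the added 1 TPM, and at least 267 reads lay behind every member value. The within-run fits, the run covariate with scaling and all ratio alternatives were chosen after seeing the data.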
